A study of Mus musculus with 12 samples.

Results

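The 8 genes described here encode secreted proteins of the matricellular and provisional matrix, namely *Tnc*, *Spp1*, *Postn*, *Fn1*, *Sparc*, *Thbs1*, *Thbs2* and *Vcan*. They were taken by symbol from the 55487 gene identifiers of a count table for whole mouse lenses, and each symbol matched 1 identifier. RNA-seq had been performed on lenses from postnatal day 7 (P7) mice of 4 genotypes on the C57BL/6J background, with 3 libraries for each genotype and 4 male plus 4 female lenses pooled in each library. Wild-type (WT) lenses served as the control. Heterozygous lenses (*Trpm3*-I/M) and homozygous lenses (*Trpm3*-M/M) carried a knock-in isoleucine-to-methionine substitution in the cation channel TRPM3, which causes early-onset cataract, and the substitution is present in every cell that expresses the gene. *Trpm3*-KO lenses carried a *Trpm3* gene interrupted by a reporter and selection cassette and remained clear. P7 was chosen by the study because the embryonic vessel network around the lens is then largely resorbed, and because homozygous mutant lenses of older animals tear and hold on to iris and retina.

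Matricellular proteins are secreted into the extracellular matrix but serve mainly as signals to cells rather than as load-bearing fibers. They bind integrins, syndecans, CD44 and growth factors, and most of them are low in resting adult tissue and rise in development, wounds and fibrosis. The provisional matrix is the loose early matrix of a wound, rich in fibronectin and in the large proteoglycan versican, on which cells migrate before collagen is laid down. In the lens these proteins are known mainly from the capsule, which is a thick basement membrane, and from the fibrotic opacities that lens epithelial cells form after injury or surgery.

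The 12 libraries held 56162182 to 82090262 counts on genes, with composition scaling factors (TMM) of 0.828 to 1.27. *Trpm3* itself was at 95.3 ± 5.02 CPM (counts-per-million units) in *Trpm3*-KO lenses and at 269 ± 17.3 CPM in WT lenses (SD, n = 3), so the knockout libraries were lower as labelled. One *Trpm3*-I/M library stood apart. Replicate 3 had *Xist* at 0.0721 CPM against 45.8 to 305 CPM in the other 11 libraries, and a summed level of 4 Y-linked genes of 69.1 CPM against 21.6 to 50.6 CPM, which goes against a pool of both sexes. Fold changes of the members in *Trpm3*-I/M lenses are therefore also given without it. Nothing in the labels says whether pools of a genotype came from separate litters, so p-values measure only the spread between these pools.

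*Tnc*, *Spp1*, *Postn* and *Vcan* moved together in homozygous mutant lenses, and the 250 bases before the RefSeq start site nearest to the annotated start of each gene (GRCm38.p6) are shown for that reason, 5′ to 3′ on the gene's strand, with every match to 6 searched motifs in capitals. The windows lie at chr4:64047016-64047265 on the minus strand (*Tnc*), chr5:104434861-104435110 on the plus strand (*Spp1*), chr3:54360857-54361106 on the plus strand (*Postn*) and chr13:89742513-89742762 on the minus strand (*Vcan*). None of them overlaps an annotated exon of its own gene, and exons of other genes were not checked.
Tnc: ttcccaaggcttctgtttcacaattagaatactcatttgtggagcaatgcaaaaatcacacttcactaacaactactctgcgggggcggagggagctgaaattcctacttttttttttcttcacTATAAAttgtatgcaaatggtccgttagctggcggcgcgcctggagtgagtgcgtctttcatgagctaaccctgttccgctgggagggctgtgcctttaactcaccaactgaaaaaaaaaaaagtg
Spp1: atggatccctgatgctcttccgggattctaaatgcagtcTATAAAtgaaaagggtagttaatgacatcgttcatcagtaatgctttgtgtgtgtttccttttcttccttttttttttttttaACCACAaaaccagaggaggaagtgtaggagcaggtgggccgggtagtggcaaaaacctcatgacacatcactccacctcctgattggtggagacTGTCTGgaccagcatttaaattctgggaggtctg
Postn: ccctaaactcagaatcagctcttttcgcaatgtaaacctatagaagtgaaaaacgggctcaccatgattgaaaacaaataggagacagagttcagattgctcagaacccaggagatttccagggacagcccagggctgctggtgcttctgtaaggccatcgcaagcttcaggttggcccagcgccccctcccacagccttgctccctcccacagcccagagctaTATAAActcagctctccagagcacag
Vcan: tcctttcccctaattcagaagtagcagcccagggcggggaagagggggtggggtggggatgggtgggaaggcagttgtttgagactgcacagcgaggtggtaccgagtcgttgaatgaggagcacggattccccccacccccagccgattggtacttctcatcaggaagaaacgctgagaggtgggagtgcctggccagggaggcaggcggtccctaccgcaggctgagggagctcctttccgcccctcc

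The motifs were searched on both strands, and no matches overlapped each other. A TATA box (TATAAA) was found in the windows of *Tnc*, *Spp1* and *Postn*, and in 12.4% of all 32851 promoter windows of this length. In *Postn* it ran from 26 to 21 bases before the start, whereas it lay 126 to 121 bases before the start in *Tnc* and 211 to 206 bases before it in *Spp1*. *Spp1* also held a RUNX motif (TGTGGT, in 14% of all windows) on the minus strand from base 128 to base 123 before the start, and a SMAD element (CAGACA, in 17.1% of all windows) on the minus strand from base 34 to base 29. None of the windows shown held an AP-1 site (TGANTCA, in 6.75% of all windows), a TEAD motif (GGAATG, in 12.6%) or a CArG box (in 1.47%), and the *Vcan* window held none of the 6 motifs. RefSeq gives *Tnc*, *Spp1* and *Postn* a further start site each. The window of the other *Tnc* site overlaps the one shown and holds the same TATA box and a SMAD element, and those of the other *Spp1* and *Postn* sites held no match. The windows of *Thbs2* and *Sparc*, members that were not called, were searched too. That of *Thbs2* also held a TATA box match, on the minus strand from 126 to 121 bases before the start, and SMAD elements. That of *Sparc* held a SMAD element. A match describes the letters only and says nothing about binding.

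In *Trpm3*-M/M lenses, transcripts of tenascin-C (*Tnc*), osteopontin (*Spp1*), periostin (*Postn*), fibronectin (*Fn1*) and versican (*Vcan*) were far above WT lenses, from 20.3-fold for *Fn1* to 1370-fold for *Tnc*, whereas *Sparc* did not pass the test. Thrombospondin-1 (*Thbs1*) was lower and thrombospondin-2 (*Thbs2*) higher past the false discovery rate used here, but by less than the fold threshold of 2. In *Trpm3*-I/M lenses *Tnc* and *Postn* were also higher, by a far smaller fold, and *Thbs1* and *Thbs2* again differed from WT by less than that threshold. No member passed the thresholds in *Trpm3*-KO lenses. A gene was called when it passed a fold change of at least 2 and a Benjamini-Hochberg false discovery rate (FDR) of at most 0.05 in edgeR's quasi-likelihood test over 8984 genes with at least 5 CPM in 3 or more libraries. All later log2 fold changes, standard errors (SE) and FDR values come from that fit unless stated otherwise.

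**Figure D1:**
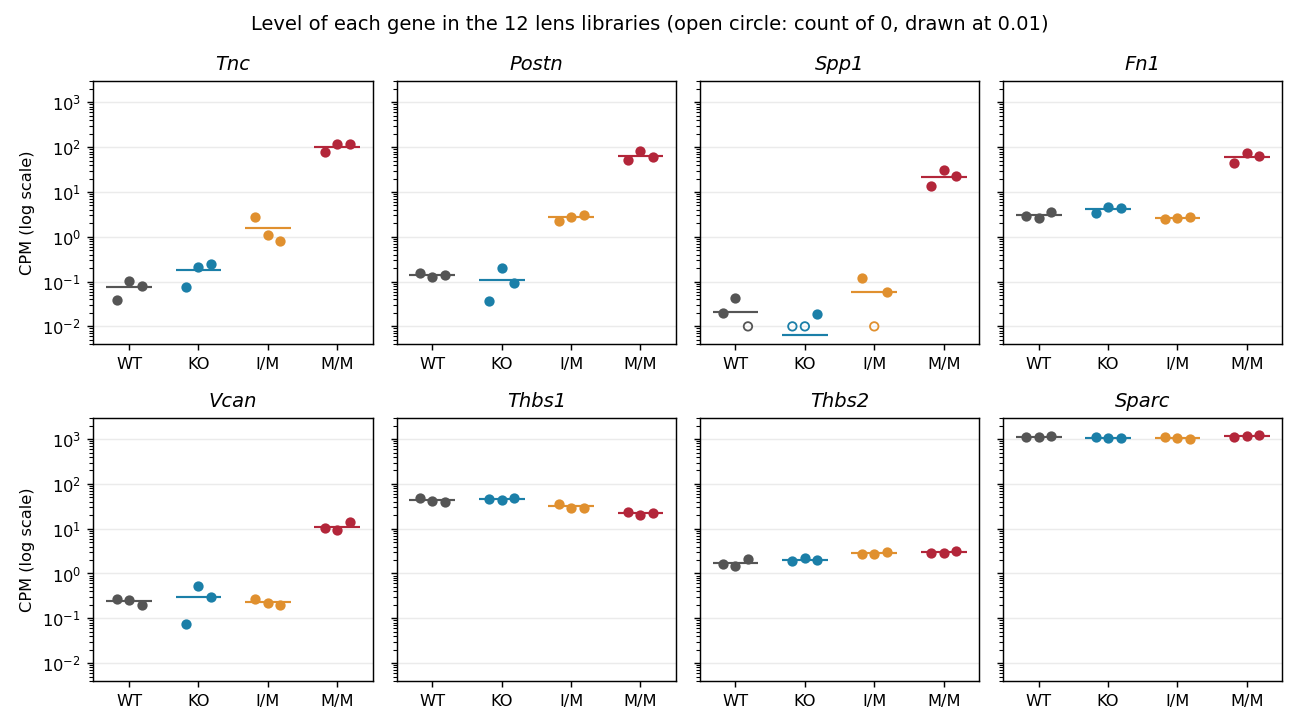
Level of each of the 8 genes in CPM on a log axis, with 1 filled circle per library, a line at the mean of each genotype and libraries with a count of 0 drawn as open circles at 0.01. The 3 *Trpm3*-M/M libraries sit above all other libraries for *Tnc*, *Postn*, *Spp1*, *Fn1* and *Vcan*, and below them for *Thbs1*.

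Of the 7 members that could be tested, 5 were called higher in *Trpm3*-M/M against WT lenses and 0 were called lower. Among all tested genes 6.42% were called higher in this comparison and 2.53% lower, and 32.8% lay higher and 32.4% lower without overlap between the libraries. The count of members is a description, because *Tnc*, *Spp1*, *Postn*, *Fn1* and *Vcan* reached 5 CPM in the 3 *Trpm3*-M/M libraries and in no other library, so that they entered the test through the group in which they were high. Of the 513 tested genes with that property, 249 (48.5%) were called higher. *Thbs2* did not reach 5 CPM in any library and was tested among 12638 genes with at least 1 CPM in 3 or more libraries.

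*Tnc*, a hexameric glycoprotein that loosens the hold of cells on fibronectin, was close to absent in WT lenses, with 2, 5 and 4 counts in the 3 libraries (0.0393, 0.105 and 0.0793 CPM). *Trpm3*-M/M libraries gave 76.4, 118.7 and 115.2 CPM for *Tnc*, from 6113, 10946 and 10211 counts. The groups were far apart, and replicate 1 was the lowest of the homozygous mutant libraries. This was a log2 fold change of 10.4 (SE 0.47, FDR = 6.55e-10). In *Trpm3*-I/M libraries the level of *Tnc* was 2.79, 1.09 and 0.807 CPM, above every WT and *Trpm3*-KO library and below every *Trpm3*-M/M library. Against WT lenses *Tnc* in *Trpm3*-I/M lenses had a log2 fold change of 4.37 (SE 0.82, FDR = 0.00125), with 4.66 without replicate 3 and 3.67 without replicate 1, the highest of these libraries. *Trpm3*-KO libraries, at 0.0748, 0.217 and 0.244 CPM, overlapped the WT libraries.

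*Postn*, a secreted protein that binds integrins and helps collagen to be cross-linked, had the most even graded series. WT libraries held it at 0.157, 0.126 and 0.139 CPM and *Trpm3*-KO libraries at 0.0374, 0.199 and 0.0939 CPM. *Trpm3*-I/M libraries gave 2.27, 2.72 and 3.14 CPM of *Postn*, and *Trpm3*-M/M libraries gave 52.2, 80.9 and 60.1 CPM. The heterozygous libraries lay between the other mutant libraries and the WT libraries with no overlap on either side. Against WT lenses *Postn* had a log2 fold change of 4.24 (SE 0.4, FDR = 3.15e-06) in heterozygous lenses, or 4.13 without their replicate 3, and of 8.82 (SE 0.27, FDR = 2.15e-11) in homozygous lenses. The step from heterozygous to homozygous lenses was itself tested and was 4.57 (SE 0.17, FDR = 6.78e-10).

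*Spp1*, a phosphorylated ligand of integrins and CD44 that macrophages and mineralizing cells secrete, was at the limit of detection outside homozygous mutant lenses. Its counts were 1, 2 and 0 in WT libraries, 0, 0 and 1 in *Trpm3*-KO libraries and 9, 0 and 4 in *Trpm3*-I/M libraries. *Trpm3*-M/M libraries held 13.5, 30.5 and 22.5 CPM of *Spp1*, from 1078 to 2808 counts, with the widest relative spread of any member there (a coefficient of variation of 38.3%). Taking 3 counts per library as the floor, *Spp1* was at least 366-fold higher in *Trpm3*-M/M than in WT lenses. It was also called higher against *Trpm3*-I/M lenses, by 8.54 on the log2 scale (SE 0.45, FDR = 1.26e-08). That value rests on few heterozygous counts and ran from 7.91 without *Trpm3*-I/M replicate 2 to 9.61 without replicate 1. No fold is given for *Trpm3*-I/M against WT lenses, where both groups were near the floor.

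*Fn1*, the main adhesive glycoprotein of the provisional matrix, had a measurable base level in WT lenses, at 2.87, 2.58 and 3.57 CPM. It was at 2.48, 2.66 and 2.83 CPM in *Trpm3*-I/M libraries and at 44.6, 73.9 and 65.1 CPM in *Trpm3*-M/M libraries. Heterozygous libraries overlapped WT libraries, and all homozygous mutant libraries lay above both. For *Fn1* the log2 fold change was 4.34 (SE 0.19, FDR = 4.58e-10) in *Trpm3*-M/M against WT lenses and 4.53 (SE 0.18, FDR = 1.51e-09) against *Trpm3*-I/M lenses. In *Trpm3*-I/M against WT lenses *Fn1* differed by -0.183 on the log2 scale (95% confidence interval -0.672 to 0.307, FDR = 0.58), a sign that turned with scaling by library size alone (0.0158). Its *Trpm3*-KO libraries, at 3.36, 4.61 and 4.3 CPM, had a log2 fold change of 0.443 (interval -0.038 to 0.924, FDR = 0.322).

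*Vcan*, the hyaluronan-binding proteoglycan of loose matrix, followed *Fn1* at a lower level. It was at 0.275, 0.252 and 0.198 CPM in WT libraries and at 0.27, 0.219 and 0.202 CPM in *Trpm3*-I/M libraries, from 10 to 20 counts each. *Trpm3*-M/M libraries gave 10.2, 9.14 and 13.9 CPM of *Vcan*. The groups of WT and heterozygous libraries overlapped, and the homozygous libraries were apart from both. In homozygous lenses *Vcan* had a log2 fold change of 5.51 (SE 0.32, FDR = 6.88e-09) against WT and 5.58 (SE 0.3, FDR = 1.26e-08) against *Trpm3*-I/M lenses. The difference between *Trpm3*-I/M and WT lenses was -0.0699, with an interval of -1.19 to 1.05, so a change within those bounds was not detectable at this depth. Its sign turned without WT replicate 1, without *Trpm3*-I/M replicate 3 and with scaling by library size alone. *Trpm3*-KO libraries were scattered for *Vcan*, at 0.0748, 0.525 and 0.301 CPM from 4, 29 and 16 counts.

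**Figure D2:**
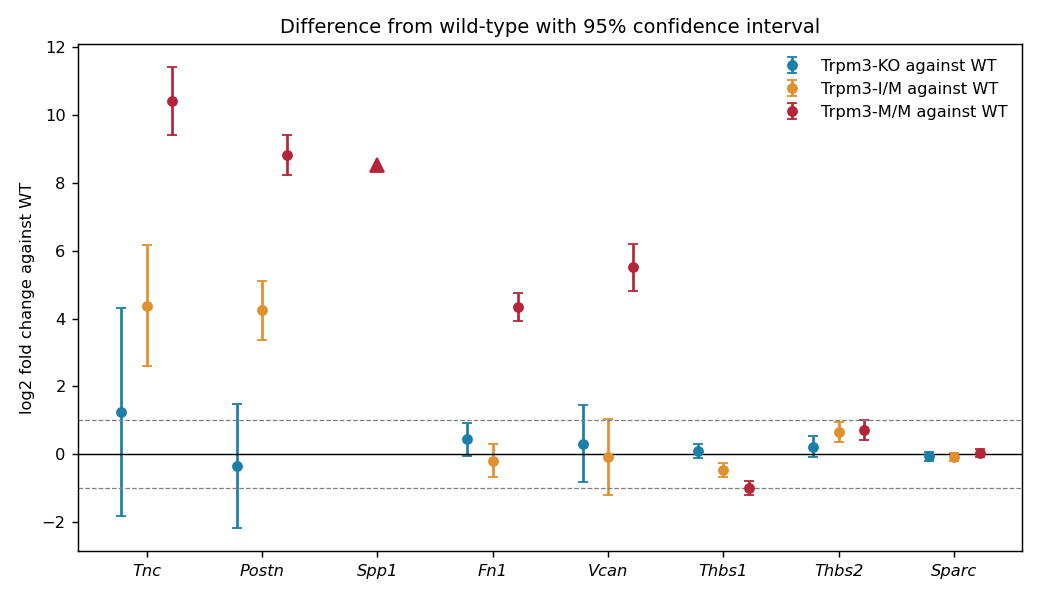
Log2 fold change of each gene against WT lenses with its 95% confidence interval, for the knockout, heterozygous and homozygous lenses, with dashed lines at a 2-fold change in either direction. The triangle is the lower bound for *Spp1* (366-fold, 8.52 on the log2 scale), *Thbs2* comes from the fit with the lower CPM minimum, and the *Trpm3*-KO intervals of all 7 genes drawn include 0.

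The thrombospondins moved by far less than the 5 genes above, and in opposite directions. *Thbs1*, a trimeric glycoprotein that restrains new vessels and can activate latent TGF-beta, was the second most abundant member in WT lenses. WT libraries held it at 48.9, 40.8 and 40.4 CPM, *Trpm3*-I/M libraries at 35.7, 29.4 and 29.7 CPM and *Trpm3*-M/M libraries at 24, 19.8 and 22.2 CPM. None of these 3 groups overlapped another for *Thbs1*, where 21.5% of all tested genes lay lower without overlap in heterozygous lenses and 30.2% between the mutants. Against WT lenses the log2 fold change was -0.456 (SE 0.095, FDR = 0.00246) in heterozygous lenses and -0.981 (SE 0.096, FDR = 1.14e-06) in homozygous lenses, and the step between the mutant genotypes was -0.525 (SE 0.095, FDR = 0.000491).

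The homozygous value of *Thbs1* was 1.97-fold lower and so missed the fold threshold, although it passed the FDR, as did 31.4% of all tested genes in that direction, with 15.3% in heterozygous against WT lenses and 25.7% between the mutants. Without WT replicate 2, WT replicate 3 or *Trpm3*-M/M replicate 1 it passed both thresholds, at -1.02, -1.03 and -1.05. Scaling by library size alone, which moved the median of all tested genes up by 0.504 on the log2 scale in this comparison, gave -0.475. The heterozygous value and the step between the mutants missed the FDR with that scaling, at -0.258 (FDR = 0.0503) and -0.217 (FDR = 0.075), and without *Trpm3*-I/M replicate 3 they were -0.414 and -0.567. *Trpm3*-KO libraries of *Thbs1*, at 45.7, 44.1 and 49 CPM, overlapped the WT libraries.

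*Thbs2*, the related thrombospondin of connective tissue, was at 1.63, 1.49 and 2.14 CPM in WT libraries, 2.66, 2.69 and 3.07 CPM in *Trpm3*-I/M libraries and 2.83, 2.83 and 3.19 CPM in *Trpm3*-M/M libraries. Both mutant groups lay above the WT libraries and overlapped each other. In the fit with the lower CPM minimum the log2 fold change of *Thbs2* against WT was 0.668 (SE 0.14, FDR = 0.00221) in heterozygous lenses and 0.723 (SE 0.14, FDR = 0.000377) in homozygous lenses, under the fold threshold in both. In that fit 15.5% and 30.1% of all tested genes, respectively, passed the FDR in the higher direction, and 22% and 33.6% lay higher without overlap. The difference between the mutant genotypes was 0.0554 (interval -0.212 to 0.323, FDR = 0.741). With scaling by library size alone the homozygous value was 1.25 and passed both thresholds, which is a shift close to that of the median gene.

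*Sparc*, a collagen-binding glycoprotein of basement membranes, was the most abundant member in every library and did not pass the FDR in any comparison. Its level was 1092, 1115 and 1155 CPM in WT libraries, 1097, 1070 and 1060 CPM in *Trpm3*-KO libraries, 1141, 1065 and 999.4 CPM in *Trpm3*-I/M libraries and 1090, 1179 and 1211 CPM in *Trpm3*-M/M libraries. The ranges of the WT, heterozygous and homozygous libraries overlapped. Against WT lenses *Sparc* differed by 0.0499 on the log2 scale in homozygous lenses (interval -0.0707 to 0.17, FDR = 0.456), by -0.0684 in heterozygous lenses (interval -0.189 to 0.0522, FDR = 0.384) and by -0.0589 in knockout lenses (interval -0.179 to 0.0617, FDR = 0.639). With scaling by library size alone these differences were 0.56 in homozygous and 0.132 in heterozygous lenses, against shifts of the median gene of 0.504 and 0.2, and the first passed the FDR (1.75e-06).

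In *Trpm3*-I/M against WT lenses 2 of the 7 tested members, *Tnc* and *Postn*, were called higher and 0 lower, where 2.58% of all tested genes were called higher, 0.746% lower and 23.1% lay higher without overlap. The count was again 2 higher and 0 lower without *Trpm3*-I/M replicate 3, where *Fn1* was at -0.227, *Sparc* at -0.0223 and *Thbs2* at 0.599 (FDR = 0.0117) on the log2 scale. Neither *Tnc* nor *Postn* had entered the test through the heterozygous libraries, in which their means were 1.56 ± 1.07 and 2.71 ± 0.439 CPM. Both had entered through the *Trpm3*-M/M libraries, so this count is a description as well. In *Trpm3*-M/M against *Trpm3*-I/M lenses 5 members were called higher and 0 lower, with 3.67% of all tested genes called higher, 1.02% lower and 30.4% higher without overlap. This count too is a description, because all 5 had entered the test through the *Trpm3*-M/M libraries, the group in which they were high. Without *Trpm3*-I/M replicate 3 these 5 differences were 5.76 for *Tnc*, 4.69 for *Postn*, 8.54 for *Spp1*, 4.57 for *Fn1* and 5.5 for *Vcan*. In *Trpm3*-KO against WT lenses 0 of 7 were called by edgeR and 0 by DESeq2, where edgeR called 0.234% of all tested genes higher and 0.334% lower. An unadjusted p of 0.05 in edgeR's test was passed by 0 of 7 members, and by 795 genes higher and 834 lower of the 8984 tested. The 3 comparisons with WT lenses share their control libraries.

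Per base of annotated exon, the order of the members differed between genotypes. Levels were divided by the length of all annotated exons of a gene, from 1.65 kilobases for *Spp1* to 14.5 kilobases for *Vcan*. That length pools all annotated transcripts of a gene, so the order within a genotype depends on the annotation. In WT lenses *Sparc* led with 296 ± 8.42 CPM per kilobase, followed by *Thbs1* with 7.14 ± 0.791, and no library of one overlapped the other. *Fn1* (0.257) and *Thbs2* (0.251) came next and overlapped each other, and *Vcan*, *Postn*, *Spp1* and *Tnc* were all under 0.02 CPM per kilobase on average and were not separated from their neighbours.

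In *Trpm3*-M/M lenses *Sparc* again led, with 306 ± 16.6 CPM per kilobase. *Spp1* (13.4 ± 5.15) and *Tnc* (13.3 ± 3.02) followed and overlapped each other, then *Postn* (7.4 ± 1.7), *Fn1* (5.24 ± 1.28) and *Thbs1* (3.62 ± 0.348), each of which overlapped its neighbour in that order, and then *Vcan* (0.767 ± 0.172) and *Thbs2* (0.421 ± 0.0302), which did not. The 8 genes together took 0.103% ± 0.006 of the counts in WT libraries and 0.181% in *Trpm3*-M/M libraries. Without *Sparc* they summed to 42.7 ± 5.64 CPM by library size in WT libraries, 48.2 in knockout and 42 in heterozygous libraries. In homozygous libraries that sum was 359 CPM, with a range of 273.5 to 419.

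The genes whose pattern was most like each tested member's were found by Pearson's r of log2 CPM over the 12 libraries, which share genotypes and depth, so that r is a description. *Scara3* (r = 0.9928), *Col16a1* and *Phlda3* were closest to *Tnc*, and the means of all 3 were higher in heterozygous than in WT lenses and higher again in homozygous lenses. *Col16a1*, for example, had means of 1.96 CPM in WT, 4.8 in heterozygous and 21 in homozygous lenses. *Pdk3* (r = 0.9968), *Gm44850* and *Cbfa2t3* were closest to *Postn*. *Arr3*, the cone arrestin, was closest to *Spp1* (r = 0.9954), ahead of *Cntn1* and *Renbp*, with means of 0.0403 CPM in WT, 0.0681 in heterozygous and 16.4 in homozygous lenses.

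*Prss23* (r = 0.991), *Sbno2* and *Arhgef11* were closest to *Fn1*, and *Slc12a2* (r = 0.9805), *Arhgef11* and *Scd2* to *Vcan*. *Arhgef11* stood on both lists, at 17.5 CPM in WT, 17.4 in heterozygous and 28.2 in homozygous lenses. *Ap3b2* (r = 0.9825), *Stk10* and *Gm7901* were closest to *Thbs1*, and *Ap3b2* stood at 28.7 CPM in WT, 18.8 in heterozygous and 12.3 in homozygous lenses. The genes nearest to *Sparc* were less close, namely *Abi1* (r = 0.902), *Hdac1* and *Fam221b*.

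The wider set to which these 8 genes belong was followed in 5 lists of 142 genes in all, of which 75 could be tested. In homozygous against WT lenses 33 of the 75 were called higher and 1 was called lower, beside 6.42% and 2.53% of all tested genes, with a median log2 fold change of 0.72 beside -0.0042. In heterozygous lenses 12 were called higher and 3 lower, with or without their replicate 3, beside 2.58% and 0.746% of all tested genes, and in *Trpm3*-KO lenses 0 were called higher and 1 lower, beside 0.234% and 0.334%. Some of these genes were low in WT lenses, such as *Tgfbi* (0.356 CPM), *Efemp1* (0.107 CPM) and *Col1a1* (0.128 CPM). Others that were called higher in homozygous lenses were not, such as *Ccn2* (14.9 CPM), *Acta2* (68.3 CPM) and *Cd44* (28.7 CPM). Through its low genes, a list's share of called genes also carries the filter on low values. Of the 513 tested genes that reached 5 CPM in the 3 *Trpm3*-M/M libraries alone, 48.5% were called higher in homozygous against WT lenses. How many of the 75 have that property was not counted. The lists were chosen with earlier results of these data known, so their counts are a description.

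**Figure D3:**
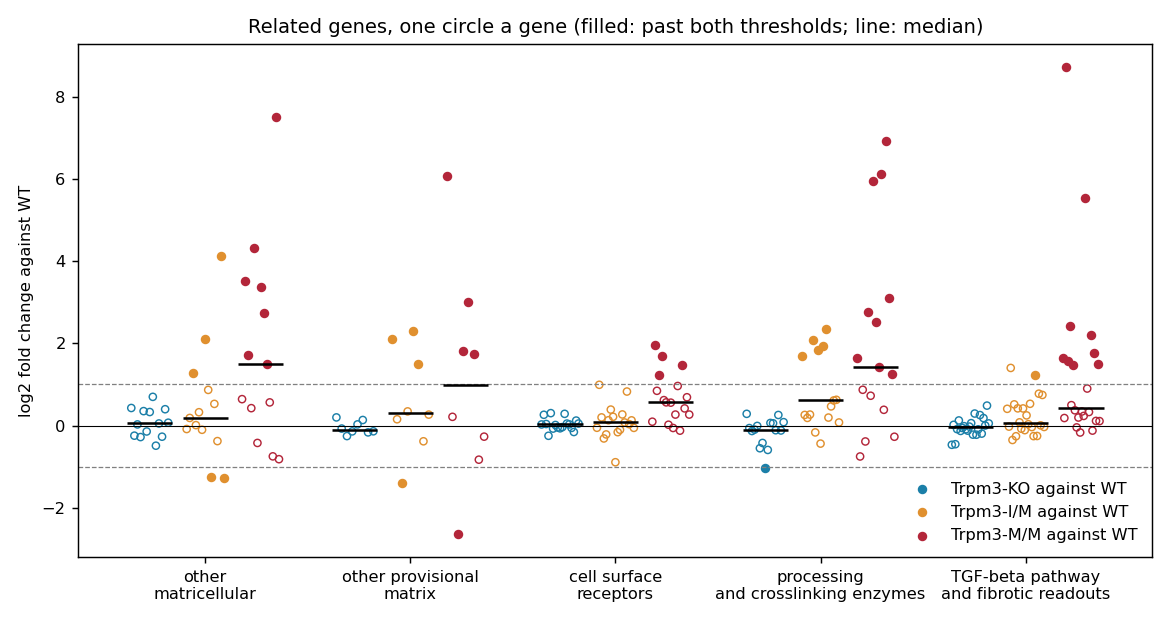
Log2 fold change against WT lenses of every tested gene of 5 related lists, with filled circles for genes past both thresholds, black lines at the list medians and dashed lines at a 2-fold change, and with *Tgm2* in *Trpm3*-M/M lenses at its lower bound. Filled circles above 0 for *Trpm3*-M/M lenses number 7, 4, 4, 9 and 9 from left to right, and the 1 filled circle below 0 is *Emilin1*.

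Among other matricellular genes, 7 of 13 tested were called higher in homozygous lenses and 0 lower (median 1.5). In heterozygous lenses *Tgfbi*, *Lgals1* and *Ccn2* (1.27) were called higher, and *Tnxb* (-1.28) and *Sparcl1* (-1.25) lower, although *Sparcl1* was called higher in homozygous lenses (1.49). *Tgfbi*, an integrin ligand of the cornea and of wounds that is related to periostin, had 0.356 ± 0.0207 CPM in WT, 6.27 ± 2.11 in heterozygous and 64.6 ± 13.8 in homozygous lenses, with log2 fold changes of 4.13 (SE 0.37, FDR = 1.99e-06) and 7.5 (SE 0.3, FDR = 2.51e-10). *Fbln2*, a fibulin that binds fibronectin and versican, was called in homozygous lenses (4.31, FDR = 4.63e-09), as was *Ccn1*, an integrin-binding immediate early gene product (3.51, FDR = 4.47e-08). *Lgals1*, which encodes the glycan-binding galectin-1, was called in both mutants, at 2.11 and 3.38.

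Among other genes of the provisional and elastic matrix, 4 of 8 tested were called higher in homozygous lenses and 1 lower (median 0.98). In heterozygous lenses *Efemp1*, *Fbn2* and *Ltbp1* (1.5) were called higher and *Emilin1* lower. *Efemp1*, a fibulin-like glycoprotein, had a log2 fold change of 6.07 (SE 0.2, FDR = 3.34e-11). The fibrillin genes *Fbn2* and *Fbn1*, which encode the microfibrils that also form the zonules of the lens, were called at 3 (FDR = 3.84e-07) and 1.8 (FDR = 1e-05). *Emilin1*, an elastic fiber glycoprotein, went the other way, with 31.9 ± 2.49 CPM in WT, 12 ± 0.591 in heterozygous and 5.11 ± 0.392 in homozygous lenses and log2 fold changes of -1.41 (FDR = 7.55e-09) and -2.64 (FDR = 9.45e-12).

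Of the receptors that bind these proteins, 4 of 17 tested were called higher in homozygous lenses and 0 in heterozygous lenses, where 6 passed the FDR in that direction and 2 in the other, beside 17.3% and 15.3% of all tested genes, with a median of 0.56 in the homozygous lenses. They were *Cd44*, the receptor of hyaluronan and osteopontin (1.95, SE 0.36, FDR = 0.000344), *Itga9*, an integrin subunit that binds tenascin-C and osteopontin (1.69, FDR = 2.86e-08), *Sdc3*, a syndecan (1.47, FDR = 1.54e-10), and *Itga5*, the fibronectin-binding integrin subunit (1.22, FDR = 2.11e-07). *Cd44* was uneven among WT libraries, with a mean of 28.7 ± 17.3 CPM against 111 ± 17.1 in *Trpm3*-M/M lenses. In *Trpm3*-M/M against *Trpm3*-I/M lenses *Itga5* (1.53) and *Itga9* (1.91) were called higher, as was *Itgb8* (1.45).

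Among enzymes and inhibitors that cut or cross-link this matrix, 9 of 15 tested were called higher in homozygous lenses and 0 lower (median 1.4). Genes called higher in heterozygous lenses included *Loxl2* (2.07), *Adamts4* (1.69), *Serpine2* (2.35) and *Mmp2* (1.84). *Tgm2*, a transglutaminase that cross-links fibronectin, was at no more than 3 counts in any WT library and at least 121-fold higher in *Trpm3*-M/M lenses. The protease inhibitor *Serpine2* (6.12, FDR = 2.31e-10), the gelatinase *Mmp2* (5.94, FDR = 1.71e-09) and the metalloproteinase inhibitor *Timp1* (3.09, FDR = 1.67e-08) were also called. *Plat*, tissue plasminogen activator, was the single related gene called in *Trpm3*-KO lenses, at 1.04 ± 0.0367 CPM against 2.14 ± 0.604 in WT lenses (log2 fold change -1.04, SE 0.26, FDR = 0.0398), and this call was lost on leaving out WT replicate 2 or 3, any *Trpm3*-KO library, or *Trpm3*-I/M replicate 1 or 2. *Plat* was called in the other direction in homozygous lenses, at 12.2 ± 3.14 CPM.

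Of the TGF-beta pathway and its common fibrotic readouts, 9 of 22 tested were called higher in homozygous lenses (median 0.43), 1 in heterozygous lenses and 0 in knockout lenses, where 1 passed the FDR and an unadjusted p of 0.05 in that direction, beside 2.16% of all tested genes past the FDR. Past that p in knockout lenses lay 1 gene of the list higher and 4 lower, beside 795 and 834 of all 8984 tested genes. *Col1a1*, a chain of type I collagen, went from 0.128 ± 0.00943 CPM in WT to 54.3 ± 23.3 in *Trpm3*-M/M lenses (8.71, SE 0.43, FDR = 1.48e-09). The smooth muscle and myofibroblast gene *Tagln* (5.54, FDR = 2.86e-09) and the collagen gene *Col5a1* (2.43, FDR = 1.39e-09) were called in homozygous lenses, and were called between the mutants too, at 5.01 and 1.91. The TGF-beta ligand *Tgfb3* was called in both mutants, at 1.22 (FDR = 2.13e-05) and 2.19 (FDR = 1.53e-08). *Ccn2*, *Tnxb*, *Sparcl1*, *Ltbp1*, *Itgb8*, *Loxl2*, *Adamts4* and *Acta2* fall outside the naming rule and were named after their values were seen. So were the cell type markers named below other than the leading ones of each list.

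Cells other than lens cells also make these proteins, and markers of several such cells moved with the members. In bulk RNA, fewer or more cells of a type and less or more RNA per cell cannot be told apart. The summed level of 14 endothelial markers was 15 to 17.5 CPM in WT, 14.7 to 15.5 in knockout, 27.3 to 36.2 in heterozygous and 74.1 to 88.6 in homozygous libraries. Of these 14 markers 12 were under 1 CPM in WT lenses and 1 was in *Trpm3*-M/M lenses, and *Cdh5*, for example, was at 0.245 CPM in WT, 2.88 in heterozygous and 9.9 in homozygous lenses. *Pecam1* was at 0.678, 1.93 and 6.5 CPM in the same order. Most of the WT sum was *Egfl7* and *Tek*. *Egfl7* was at 7.78 CPM in WT, 6.32 in heterozygous and 8.12 in homozygous lenses, and *Tek* at 5.7, 12.5 and 11.8 CPM.

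The list of 14 pericyte and fibroblast markers summed to 94.2 to 103 CPM in WT, 80.9 to 87.6 in knockout, 87.4 to 97.4 in heterozygous and 149 to 201 in homozygous libraries. Most of the WT sum was *Pdgfra* (79.4 CPM), which lens epithelium also expresses and which was lower in *Trpm3*-M/M lenses (39 CPM), while the pericyte gene *Rgs5* was at 0.507 CPM in WT, 5.98 in heterozygous and 31.1 in homozygous lenses. Of the 6 markers of this list that could be tested, *Rgs5*, *Cspg4*, *Col1a1* and *Col1a2* were called higher in homozygous lenses and *Pdgfra* lower. The pericyte gene *Pdgfrb* was not called, at 12.1 CPM in WT, 17.9 in knockout, 13.7 in heterozygous and 17.2 in homozygous lenses. *Myh11* and *Abcc9*, which were not tested, were at 0.625 and 1.42 CPM in WT and 1.14 and 2.78 CPM in homozygous lenses. The largest single part of the homozygous sum was *Col1a1*, at 54.3 ± 23.3 CPM against 0.128 ± 0.00943 CPM in WT lenses. That gene also stands on the list of fibrotic readouts. *Cspg4* went from 0.0878 to 10.1 CPM, *Col1a2* from 4.16 to 12.3 CPM and *Col3a1*, which was not tested, from 0.047 to 2.24 CPM. The fibroblast genes *Dpt*, *Lum* and *Dcn* were at 0, 0 and 0.0272 CPM in WT and 0, 0.0184 and 0.785 CPM in homozygous lenses.

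The 15 macrophage and microglia markers, none of which could be tested, summed to 0.496 to 0.885 CPM in WT, 0.506 to 0.766 in knockout, 1.37 to 1.64 in heterozygous and 13 to 26.4 in homozygous libraries, with *C1qa* at 1.91 and *C1qb* at 1.89 CPM in the last. The highest of the 3 homozygous libraries for this sum was replicate 2 (26.4 CPM) and the lowest replicate 1 (13 CPM), which were also the highest and lowest of them for *Spp1*, *Tnc*, *Postn* and *Fn1* and for the pericyte and fibroblast sum (201 and 149 CPM). *Vcan* was highest in replicate 3 and lowest in replicate 2. The endothelial and photoreceptor sums were highest in replicate 3 (88.6 and 24.5 CPM) and lowest in replicate 1 (74.1 and 17 CPM). These orders of 3 libraries are a description, and the share of all tested genes with the same order was not counted. Photoreceptor markers summed to 2.19 to 2.79 CPM in WT and 17 to 24.5 CPM in *Trpm3*-M/M libraries, most of it *Arr3*, with *Sag* at 0.432 CPM. The part of these cells in the levels of the members was not tested.

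**Figure D4:**
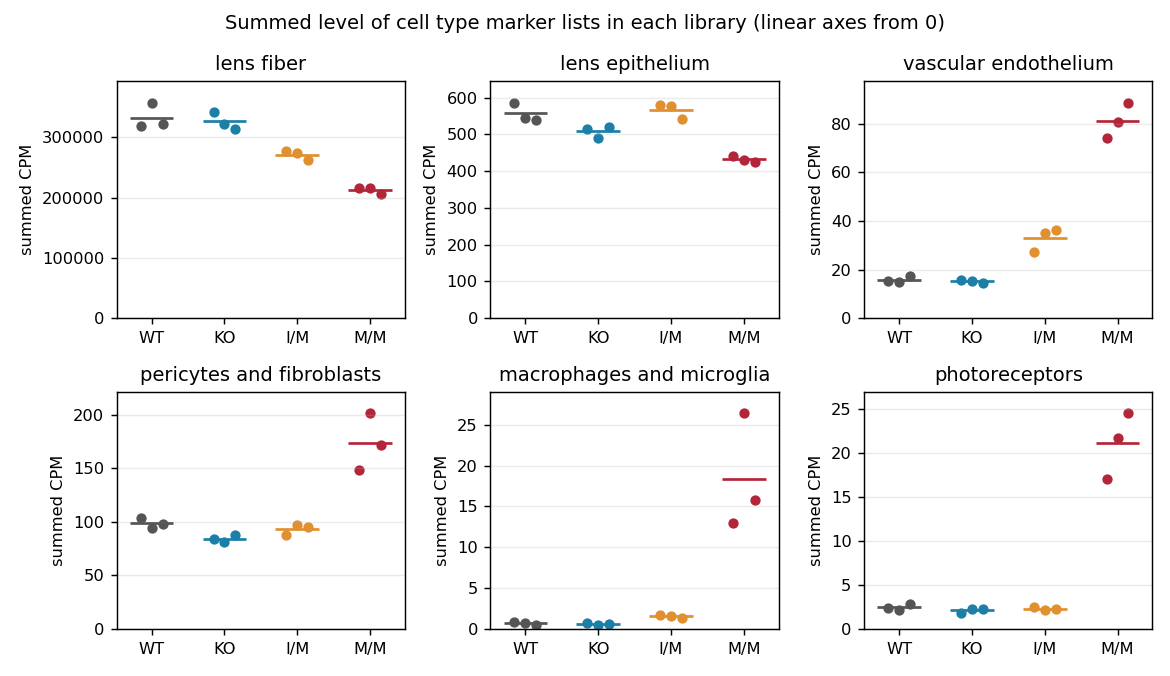
Summed level in CPM of 6 cell type marker lists in each library, on linear axes that start at 0, with 1 circle per library and a line at the mean of each genotype. The endothelial sum is 27.3 to 36.2 CPM in heterozygous and 74.1 to 88.6 CPM in homozygous libraries, whereas the macrophage and photoreceptor sums reach 13 CPM or more in the homozygous libraries alone.

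Lens markers were high in every library and lower in the homozygous mutant. Lens fiber markers summed to 318000 to 358000 CPM in WT and 205000 to 216000 in homozygous libraries, with *Cryaa* at 170000 and 119000 CPM. Lens epithelium markers summed to 541 to 587 CPM in WT and 424 to 442 in homozygous libraries, and 2 of the 9, *Foxe3* (90.8 and 19.2 CPM) and *Pdgfra*, were called lower. *Npnt* (94 and 125 CPM) and *Sulf1* (47.2 and 70.1 CPM) had higher means in the homozygous mutant, and *Tfap2a* (25 and 25.3 CPM) and *Cdh1* (58.6 and 56.5 CPM) were close. Cornea markers were at 0.275 to 0.456 CPM in WT and 3.7 to 6.79 CPM in homozygous libraries, most of it *Aldh3a1* (0.302 and 4.32 CPM), with *Krt5* at 0.0268 and 0.424 CPM, *Krt14* at 0 and 0.192 CPM and *Krt12* and *Kera* at or near 0, and red blood cell markers at 1.22 to 12 and 12.4 to 15 CPM. Other neural retina markers went from 64.2 to 76.9 CPM in WT to 86.9 to 88.4 CPM in *Trpm3*-M/M libraries. Of the 3 that could be tested, *Glul* (7.29 and 21.3 CPM) and *Apoe* (6.71 and 25.2 CPM) were called higher, while *Prkca* stood at 54.8 and 32.4 CPM, and *Gad1*, which was not tested, at 0.216 and 4.25 CPM. Astrocyte markers went from 28.5 to 30.7 to 27.9 to 28.8 CPM. Pigmented cell markers were at 21 to 23.4 CPM in WT and 14.5 to 15.4 CPM in *Trpm3*-M/M libraries, most of it *Mitf* (18.8 and 11.5 CPM). Of the others, *Tyrp1* was at 2.25 and 1.92 CPM, *Dct* at 0.194 and 0.423 CPM, *Tyr* at 0.0132 and 0.00752 CPM and *Rpe65* at 0 in both. Ciliary epithelium markers were at 17 to 19 and 13.6 to 17.1 CPM.

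The members lie on separate chromosomes of GRCm38. *Tnc* spans chr4:63959785-64047015, *Spp1* chr5:104435118-104441050, *Postn* chr3:54361109-54391037, *Fn1* chr1:71585520-71653200, *Sparc* chr11:55394500-55423183, *Thbs1* chr2:118111876-118127133, *Thbs2* chr17:14665500-14694235 and *Vcan* chr13:89655312-89742509. The library kit did not mark strand, and 4 members share exon bases with another annotated gene, *Tnc* with *8030451A03Rik*, *Fn1* with *Apol7d*, *Thbs1* with *Gm29233* and *Spp1* with *Gm42793*. None of these 4 partners had more than 5 counts in any library.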

How the data were processed

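Lens poly(A) RNA was sequenced by the authors, who pooled 4 male and 4 female lenses per library. Per the study's methods, reads were demultiplexed with bcl2fastq, aligned to the mm10 mouse genome and counted per gene with DRAGEN. The deposited values are estimated counts per gene, 88.4% of them whole numbers, without normalization. A second deposited table held the same counts with the authors' normalized values and comparisons (fold changes and p-values), which were not used.

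Here the estimated counts were rounded, although whole counts had been assumed in planning. Of 55774 entries, identical repeats of 168 identifiers were dropped. Genes with at least 5 CPM in 3 libraries were kept (8984) and fitted with edgeR 4.0.16 (R 4.3.3), using TMM factors, genotype as the only term and all 12 libraries. Each comparison was adjusted by Benjamini-Hochberg over all genes tested. CPM were counts per effective library size. Confidence intervals and the floor of 3 counts cover counting error and the spread between pools only. Depth was 56162182 to 82090262 counts per library, so 1 count was worth about 0.01 to 0.02 CPM.

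The members, 5 related lists and 12 marker lists were chosen with earlier results of these data known. Named from each related list were up to 4 called genes with the largest change in *Trpm3*-M/M lenses and at least 5 CPM there or in WT, any called in *Trpm3*-KO lenses, the 3 genes most like each member and leading markers. Exon lengths came from GENCODE M21 and promoters from RefSeq, which matched 6 of 8 members. *Fn1* and *Thbs1* had no entry. Alternatives were library-size scaling, scaling without crystallin genes, DESeq2 1.42.0, other filters and thresholds, fits of the compared genotypes alone, a replicate block and leaving out each library. The fits were tested on simulated counts. Replicates of a genotype all differed by more than sampling noise. Some genes of the related and marker lists are not reported here by name.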

Additional observations from a re-analysis of the deposited data

How the results depend on the processing

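Over the members that each fit could test (7, or 8 with no low-count filter or with 1 CPM), the alternatives called 5 higher in *Trpm3*-M/M lenses, 2 in *Trpm3*-I/M lenses and 0 in *Trpm3*-KO lenses. *Thbs2*, fitted apart at 1 CPM, passed in *Trpm3*-M/M lenses with library-size scaling (1.25) and with no fold threshold (0.723), and in *Trpm3*-I/M lenses with no fold threshold (0.668). The number called lower in *Trpm3*-M/M against WT lenses was 1 (*Thbs1*) with no fold threshold and with a minimum of 1 CPM, and 0 to 1 on leaving out 1 library. With no fold threshold it was also 1 in *Trpm3*-I/M against WT and in *Trpm3*-M/M against *Trpm3*-I/M lenses. Related genes called with no fold threshold were 56 higher and 10 lower (*Trpm3*-M/M against WT), 32 and 10 (*Trpm3*-I/M), 3 and 4 (*Trpm3*-KO), and 51 and 12 (between mutants). With no low-count filter 66, 24 and 52 were higher in homozygous, in heterozygous and between mutants, and with 1 CPM 51 and 38 in the first and last, where more genes were tested. A test against a 2-fold change left 1 lower in *Trpm3*-I/M, 0 in *Trpm3*-KO and 1 between mutants. Library-size scaling left 0 lower in *Trpm3*-KO and 0 between mutants, and over all tested genes turned 577 higher and 227 lower in *Trpm3*-M/M into 1277 and 77. On leaving out 1 library, lower calls were 0 to 1 in *Trpm3*-KO and 1 to 2 between mutants (1 without *Trpm3*-M/M replicate 2 or 3).

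Of 664 member fold changes, 646 kept their sign and call, 10 gained a call and 8 turned sign, all 8 in comparisons where the gene was not called. With library-size scaling *Fn1*, *Sparc* and *Vcan* in *Trpm3*-I/M lenses were at 0.0158, 0.132 and 0.129. Leaving out 1 library gave -1.08 to 0.063 for *Postn* and -0.363 to 0.772 for *Vcan* in *Trpm3*-KO lenses, -0.2 to 0.0321 for *Vcan* in *Trpm3*-I/M lenses (0.00777 without replicate 3) and -0.00475 to 0.128 for *Thbs2* between mutants. The cause was not tested.

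Replicate numbers did not pair the libraries: deviations of same-numbered libraries correlated at -0.264 to 0.149 over 18 pairs, and 2 of 12 libraries were closest to their own number. With a replicate block the members called were 5 higher in homozygous, 2 in heterozygous, 0 in knockout lenses and 5 between mutants, with 0 lower in each, and related genes called higher were 33, 14, 0 and 22. Counts of 0 to 14 behind *Tnc*, *Spp1*, *Postn* and *Vcan* in WT lenses limit how well a smaller change in *Trpm3*-KO or *Trpm3*-I/M lenses could be seen.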
